A study of Mus musculus with 8 samples.

Results

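Platelet integrins and the cytoplasmic proteins that switch them on were examined in mouse megakaryocytes (MKs, the marrow cells that shed platelets) cultured alone or together with mesenchymal stem cells (MSCs, marrow stromal progenitors). The set holds 9 genes, chosen by name: the integrin subunits Itga2b, Itgb3, Itga2, Itgb1, Itga6, Itga5 and Itgav, the kindlin Fermt3 and the talin Tln1. All 9 were among the 13387 genes of the deposited count table, and all 9 passed the filter on low counts that left 11722 genes for testing. The 8 libraries came from C57BL/6 mouse bone marrow, 4 from MKs cultured alone and 4 from MKs cultured with MSCs, after 18 h in both groups. Both groups received thrombopoietin in the medium, per the study's methods, and each library pooled 5 wells. MKs were enriched with beads against CD41, the protein product of Itga2b, and MSCs were sorted as CD45-Ter119-CD31-CD51+CD140a+ cells, where CD51 is the protein product of Itgav. The labels describe the RNA as that of MKs separated from platelets and from the adherent MSCs, whereas the study's text speaks of platelets.

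Integrins are heterodimers of an α and a β subunit that tie the cytoskeleton to matrix or to soluble ligands. Itga2b and Itgb3 encode the αIIb and β3 chains of the fibrinogen receptor, the most abundant receptor of the platelet surface, which stays bent and inactive until the cell is stimulated. In platelets the small GTPase Rap1 recruits talin to the β tail, talin and kindlin-3 bind the tail side by side, and the ectodomain extends and takes up ligand. The β1 chain pairs with α2 to bind collagen, with α6 to bind laminin and with α5 to bind fibronectin, and αv pairs with β3 to bind vitronectin or with other β chains. Loss of Itga2b or Itgb3 causes Glanzmann thrombasthenia, and loss of Fermt3 causes leukocyte adhesion deficiency with bleeding.

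Libraries held 4939874 to 12523616 counts. Replicate 3 of the cocultures stood apart from the rest: 10735 genes had at least 1 count in it against 12406 to 13193 in the other libraries, and 1012 genes were at 0 in it that had at least 10 counts in every other library. Its Spearman correlation across genes was 0.722 to 0.750 with the other cocultures, while all other pairs of the same group lay between 0.967 and 0.987. Results are therefore given with and without it. Marker genes of other cells moved between the groups. The summed level of 8 MSC markers was 14.5 to 19.4 CPM (counts scaled to library size by trimmed mean of M-values) in MKs alone and 1155 to 3800 CPM in cocultures, and all 6 of those tested rose, led by Sparc, a matricellular protein (0.548 and 963 CPM). The summed level of 10 macrophage markers was 174.8 to 237.7 CPM in MKs alone and 1134 to 1513 CPM in cocultures, led by the lysosomal protein Cd68 (38.7 and 298 CPM), and 8 of the 9 tested rose. The 10 neutrophil markers went the other way, from 84310 to 86080 CPM in MKs alone down to 4290 to 10190 CPM in cocultures, led by S100a8 (48460 and 4404 CPM), and all 10 fell. B cell markers, led by Ms4a1 (381 and 53.8 CPM), summed to 854 to 902 CPM and 61.1 to 225 CPM. Endothelial markers, led by Tek (30.4 and 9.49 CPM), summed to 52.9 to 64.1 CPM and 13.3 to 25.7 CPM, and erythroid markers, led by Epor (6.18 and 3.15 CPM), to 13.2 to 21.7 CPM and 0.105 to 7.63 CPM. The 14 MK and platelet markers, led by the chemokine Pf4 (841 and 1070 CPM), summed to 1692 to 2050 CPM in MKs alone and 1459 to 2262 CPM in cocultures, with Gp6 at 0 in coculture replicate 3, and 1 of them, the transcription factor Nfe2, was called, as lower. Without that library 3 of the 14 were called lower (Nfe2, Gata1 and Gp6) and 1 higher (Selp). Of all genes tested 13.2% were called higher and 7.31% lower over 8 libraries, and 20.6% and 15.4% without that library. Sparc, Cxcl12, Col1a1, Col3a1, C1qa, C1qb and C1qc averaged under 1 CPM in MKs alone, so only a higher call was open to them. The part of the cells marked by these lists in the integrin values below was not tested. In bulk RNA a change in the number of cells of a type and a change in RNA per cell cannot be told apart.

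Of the 9 genes, 3 integrin subunits rose in coculture. Itga5 was 11.1-fold, Itgav 6.25-fold and Itgb1 3.39-fold higher in cocultures (edgeR's quasi-likelihood test; calls needed a change of 2-fold or more, an adjusted p no larger than 0.05 and 1 CPM or more on average in either group). Itga2b, Itgb3, Itga2, Itga6, Fermt3 and Tln1 were not called. Of all genes tested 13.2% were called higher and 7.31% lower by the same rule, against 3 and 0 of the 9. Itgb3 and Itga6, both lower in cocultures, had unadjusted edgeR p of 0.0361 and 0.0247. How many of all genes reached an unadjusted p of 0.05 was not counted. DESeq2 called the same 2 genes lower, and it called 1259 of the 11722 genes tested lower. Every coculture lay above every library of MKs alone for 3 members (19.3% of all genes tested) and below for 3 others, Itgb3, Itga2 and Itga6 (21.1% of all genes tested). The median log2 fold change of the 9 was -0.34, and that of all genes tested 0.03. Without coculture replicate 3, the 3 higher calls held and Itga2 was called lower, against 20.6% of all genes called higher and 15.4% lower.

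**Figure D1:**
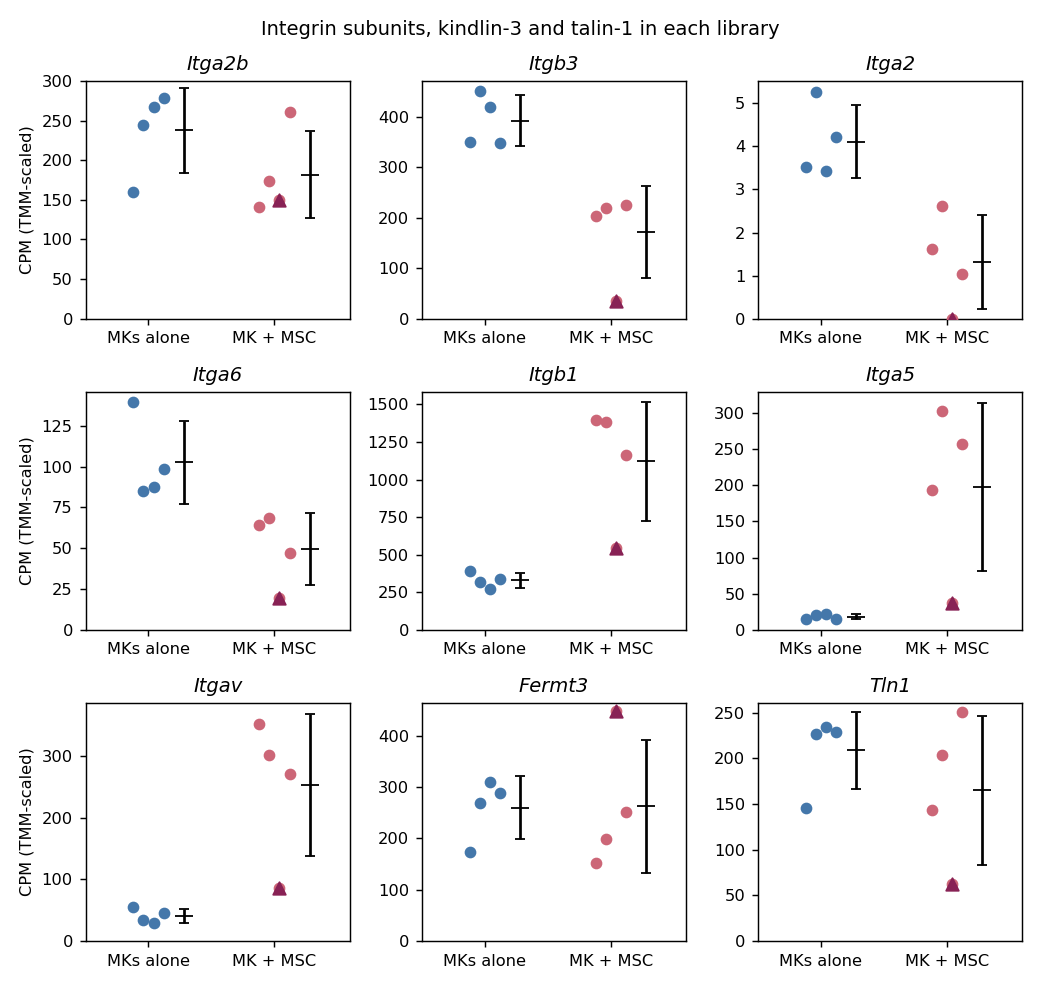
Level of each of the 9 genes in every library, in CPM on a linear axis, for MKs cultured alone and for cocultures, with coculture replicate 3 drawn as a triangle. Itgb1, Itga5 and Itgav sit higher in all 4 cocultures, Itgb3, Itga2 and Itga6 sit lower, and the groups overlap for Itga2b, Fermt3 and Tln1.

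Neither chain of the fibrinogen receptor was called, although Itgb3 was lower in every coculture. Itga2b (ENSMUSG00000034664, GRCm38 chr11:102453297-102470122, minus strand) was at 160.2, 245.2, 267.6 and 279.3 CPM in MKs alone and at 140.8, 174.1, 150.4 and 261.6 CPM in cocultures. The groups overlapped, with 1 low library among the MKs alone and 1 high library among the cocultures. The means were 238.1 ± 53.8 and 181.7 ± 55.1 CPM (SD, n = 4 each), a log2 fold change of -0.39 (SE 0.26) that did not pass the test (edgeR adjusted p = 0.326). Itgb3 (ENSMUSG00000020689, GRCm38 chr11:104608000-104670476, plus strand) was at 350.7, 450.5, 419.4 and 348.8 CPM in MKs alone and at 203.8, 219.7, 35.6 and 226.2 CPM in cocultures. All 4 cocultures lay below all 4 libraries of MKs alone, and replicate 3 was far below the other cocultures. The log2 fold change was -1.20 (SE 0.48), with an edgeR adjusted p of 0.110, while DESeq2 gave -1.23 with an adjusted p of 0.0479. Without coculture replicate 3 the log2 fold change of Itgb3 was -0.88 (SE 0.17, edgeR adjusted p = 0.000345), past the p threshold but short of the 2-fold change required for a call.

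The α chains of the platelet collagen and laminin receptors lay lower in every coculture without being called over the 8 libraries. Itga2, the α2 chain of the collagen receptor (ENSMUSG00000015533, GRCm38 chr13:114833081-114932100, minus strand), was the scarcest member, with 3.53, 5.26, 3.44 and 4.23 CPM in MKs alone and 1.61, 2.61, 0 and 1.04 CPM in cocultures. These CPM stand for 16 to 51 counts in a library of MKs alone and for 17, 20, 0 and 6 counts in the cocultures, so counting error is large here. The log2 fold change was -1.64 (SE 0.96, edgeR adjusted p = 0.256) over all 8 libraries and -1.24 (SE 0.45, edgeR adjusted p = 0.0276) without coculture replicate 3. Itga6, the α6 chain of the laminin receptor (ENSMUSG00000027111, GRCm38 chr2:71745616-71858416, plus strand), was at 139.7, 85.03, 87.7 and 98.4 CPM in MKs alone and at 64.0, 68.4, 19.3 and 46.8 CPM in cocultures. The groups did not overlap, and the lowest value was again that of coculture replicate 3. The log2 fold change of Itga6 was -1.05 (SE 0.39), with an adjusted p of 0.0853 by edgeR and 0.0310 by DESeq2. It was -0.80 (SE 0.21, edgeR adjusted p = 0.00434) without coculture replicate 3, again short of 2-fold.

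The β1 chain and α5, its partner in the fibronectin receptor, both rose. Itgb1 (ENSMUSG00000025809, GRCm38 chr8:128685654-128733200, plus strand), the shared β chain of the collagen, laminin and fibronectin receptors, was at 393.5, 320.9, 273.6 and 334.8 CPM in MKs alone and at 1396, 1380, 544.3 and 1163 CPM in cocultures. Coculture replicate 3 was the lowest coculture and still above every library of MKs alone. The mean rose from 330.7 ± 49.4 to 1121 ± 399 CPM (SD, n = 4 each), a log2 fold change of 1.76 (SE 0.31, edgeR adjusted p = 0.00379). Itga5 (ENSMUSG00000000555, GRCm38 chr15:103344286-103366763, minus strand), the α5 chain of the fibronectin receptor, was at 14.3, 20.2, 21.2 and 15.5 CPM in MKs alone and at 193.5, 303.6, 37.7 and 257.4 CPM in cocultures. It showed the largest change of the 9 genes over the 8 libraries, with a log2 fold change of 3.47 (SE 0.57, edgeR adjusted p = 0.00294), and it was a low-level gene in MKs alone. Without coculture replicate 3 the log2 fold changes were 1.97 (SE 0.18) for Itgb1 and 3.79 (SE 0.21) for Itga5.

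The αv chain rose as well. Itgav (ENSMUSG00000027087, GRCm38 chr2:83724397-83806916, plus strand), which pairs with β3, β5 and other β chains in receptors for vitronectin and osteopontin, was at 54.7, 34.3, 28.3 and 44.7 CPM in MKs alone and at 351.5, 302.6, 86.6 and 271.6 CPM in cocultures. Its mean rose from 40.5 ± 11.7 to 253 ± 116 CPM (SD, n = 4 each), with a log2 fold change of 2.64 (SE 0.43, edgeR adjusted p = 0.00286) and of 2.92 (SE 0.22) without coculture replicate 3. Exons of Itgav share 634 bases with Gm13684, annotated on the opposite strand, and the library kit does not mark strand, so reads from both cannot be told apart. In coculture replicate 3 the MSC markers summed to 1155 CPM against 2643 to 3800 CPM in the other cocultures, and Itgb1, Itga5 and Itgav had their lowest coculture value there too. The neutrophil, B cell, endothelial and erythroid sums were likewise lowest among cocultures in that library, the macrophage sum was 1502 CPM there against 1134 to 1513 CPM in the others, and the MK and platelet sum was highest there. MSCs were sorted on the Itgav product before culture, and whether residual MSCs carried these 3 transcripts into the libraries was not tested.

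**Figure D2:**
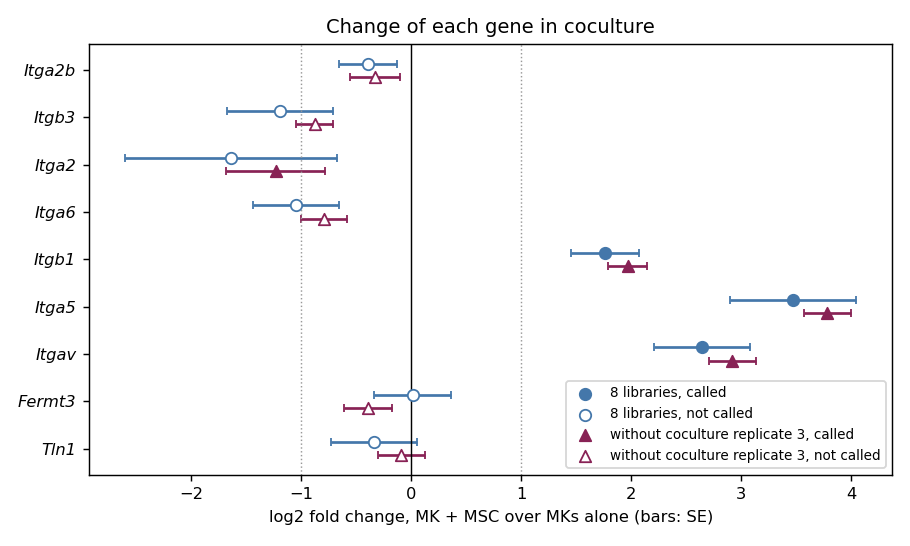
Log2 fold change of each of the 9 genes, coculture over MKs alone, with its standard error, fitted on all 8 libraries and again without coculture replicate 3. Itga5, Itgav and Itgb1 lie above the 2-fold line in both fits, and Itgb3 and Itga6 move from beyond the 2-fold line on the lower side to inside it when that library is left out.

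Promoter sequence was compared because Itgb1, Itga5 and Itgav rose together while Itga2b, the classical MK lineage gene of the set, did not. RefSeq promoters (GRCm38.p6) were found for 7 of the 9 genes, all but Itgb3 and Itga6. For Itga2b and Tln1 the RefSeq start site lies inside the GENCODE span given for the gene. The windows of these genes therefore overlap annotated gene sequence, and a GENCODE start site would give other windows. The 250 bases before each RefSeq start site were searched on both strands for the letters of 4 motif families. The ETS search took AGGAAG and, as a second spelling, the letters CGGAAG. The SP1 search took GGGCGG as its only spelling. The RUNX search took TGTGGT as its only spelling. The GATA search took AGATAA and, as a second spelling, the letters TGATAA. The last 70 bases before the start are shown for the 3 genes that rose and for Itga2b, 5′ to 3′ on the strand of the gene, with ETS and SP1 letters in capitals in either orientation.
Itga2b (chr11:102469884-102469953, minus strand): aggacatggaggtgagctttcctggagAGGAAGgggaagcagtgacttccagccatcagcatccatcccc
Itga5 (chr15:103366792-103366861, minus strand): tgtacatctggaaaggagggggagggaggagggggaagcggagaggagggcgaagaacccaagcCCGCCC
Itgav (chr2:83724327-83724396, plus strand): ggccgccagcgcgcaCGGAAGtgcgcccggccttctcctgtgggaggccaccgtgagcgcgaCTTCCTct
Itgb1 (chr8:128685584-128685653, plus strand): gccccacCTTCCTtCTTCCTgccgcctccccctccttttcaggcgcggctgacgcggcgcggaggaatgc
ETS letters occurred 2 times each in Itga2b, Itgav and Itgb1 and 1 time in Tln1, and 39.2% of 32851 promoters of the same length held at least 1. SP1 letters occurred 2 times in Itga5 and 1 time in Itgb1 (32.7% of promoters), and RUNX letters 2 times in Fermt3 (14% of promoters). GATA letters, held by 16.6% of promoters, occurred in none of the 7. ETS letters were thus present both in promoters of genes that rose and in that of Itga2b, and these matches are a description of the windows searched.

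Talin and kindlin-3, the activators that bind the β tail directly, did not pass the test. Fermt3 (ENSMUSG00000024965, GRCm38 chr19:6998958-7019469, minus strand), the kindlin of blood cells, was at 172.8, 268.5, 310.4 and 289.6 CPM in MKs alone and at 151.8, 198.5, 448.2 and 251.9 CPM in cocultures. Coculture replicate 3 held the highest value of all 8 libraries, and the groups overlapped. The log2 fold change of 0.01 (SE 0.35, edgeR adjusted p = 0.984) became -0.40 (SE 0.22, edgeR adjusted p = 0.134) without that library, so the data set no direction for Fermt3. Tln1 (ENSMUSG00000028465, GRCm38 chr4:43531519-43562691, minus strand) was at 146.1, 226.7, 234.2 and 228.4 CPM in MKs alone and at 143.5, 204.0, 61.8 and 250.7 CPM in cocultures. It was lowest in the library in which Fermt3 was highest, and its log2 fold change was -0.34 (SE 0.39, edgeR adjusted p = 0.575) over 8 libraries and -0.09 (SE 0.21, edgeR adjusted p = 0.738) without that library. Exons of Tln1 share 360 bases with Creb3 and those of Fermt3 share 89 bases with Trpt1, both on the opposite strand, so part of either level could belong to the neighbour.

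Ratios between members were compared within each library, so that the scaling of libraries drops out. Of 9 pairs, Itgb1 over Itgb3, Itgav over Itga2b, Itga5 over Itga2b and Tln1 over Itgb3 did not overlap between the groups. With 4 libraries against 4 the smallest p of a two-sided exact permutation test is 0.0286, and each of these 4 ratios reached it, with an adjusted p of 0.0643 over the 9 pairs, so no ratio passed 0.05 after adjustment. On the log2 count scale Itgb1 over Itgb3 was 0.17, -0.49, -0.62 and -0.06 in MKs alone and 2.78, 2.65, 3.93 and 2.36 in cocultures. The mean difference was 3.18, a 9.06-fold difference of the ratio, and 2.85 without coculture replicate 3. Per length of exonic sequence the ratio of Itgb1 over Itgb3 was 1.22 in MKs alone and 11.0 in cocultures. Itga5 over Itga2b lay above the range of MKs alone in each coculture, with a mean difference of 3.53, and Itgav over Itga2b did too, with a mean difference of 2.91. Tln1 over Itgb3 was 1.01 higher on the log2 scale in cocultures.

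The ratio of the chains of the fibrinogen receptor did not pass the test. Itgb3 over Itga2b was 1.13, 0.88, 0.65 and 0.32 on the log2 scale in MKs alone and 0.53, 0.34, -2.08 and -0.21 in cocultures. The groups overlapped, and the mean difference of -1.10 (two-sided exact permutation p = 0.0857, adjusted p = 0.110) was -0.52 without coculture replicate 3. Fermt3 over Itgb3 differed by 1.43 (two-sided exact permutation p = 0.0571) with replicate 3 at 3.65, and by 0.48 without it. The log2 ratio of Tln1 over Fermt3 lay between -0.41 and -0.24 in MKs alone and between -0.08 and 0.04 in cocultures 1, 2 and 4, but at -2.86 in coculture replicate 3. Itga6 over Itga2b (difference -0.77, two-sided exact permutation p = 0.286) overlapped between the groups, with a difference of -0.45 without coculture replicate 3. Itga2 over Itga2b overlapped too (difference -2.13, two-sided exact permutation p = 0.0571), and its difference was -0.95 without that library, where the 0 counts of Itga2 set the ratio at -11.5.

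**Figure D3:**
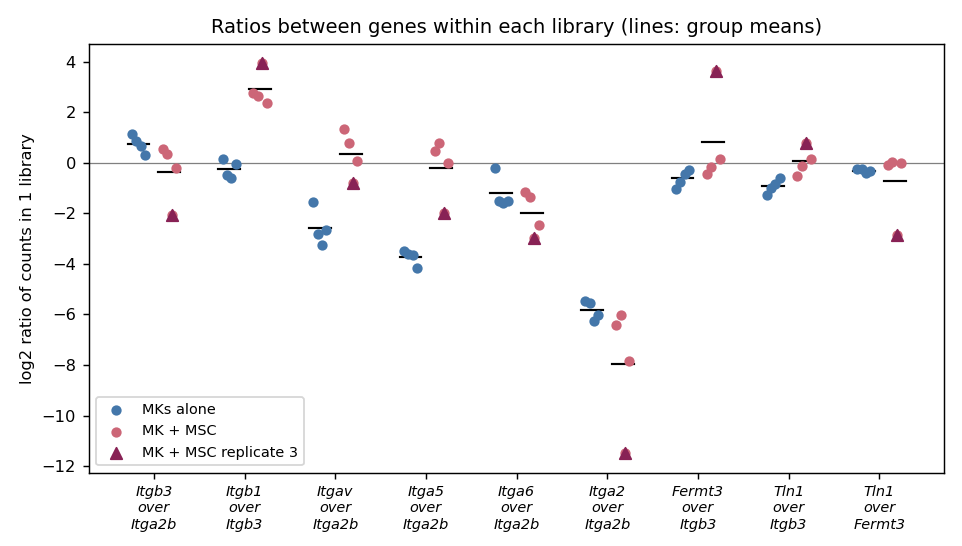
Log2 ratio of counts for 9 pairs of members in every library, MKs alone beside cocultures, with coculture replicate 3 as a triangle. Itgb1 over Itgb3, Itgav over Itga2b, Itga5 over Itga2b and Tln1 over Itgb3 separate the groups completely, and replicate 3 is the highest or the lowest coculture in each of the 9 pairs.

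The order of levels per kb of exonic sequence also differed between the groups. In MKs alone Itgb1 (81.0 CPM per kb) and Itgb3 (66.5) led and overlapped each other, followed by Fermt3 (45.0) and Itga2b (43.7), which overlapped each other but not Itgb3. Tln1 (21.3 CPM per kb) and Itga6 (11.4) came next, then Itgav (3.77) and Itga5 (3.61), and Itga2 (0.577) was lowest and apart from the rest. In cocultures Itgb1 (275 CPM per kb) stood clear of all others. Fermt3 (45.4), Itga5 (40.2), Itga2b (33.3), Itgb3 (29.0), Itgav (23.6), Tln1 (16.8) and Itga6 (5.50 CPM per kb) followed, each overlapping the next, with Itga2 (0.184) again lowest. Without coculture replicate 3 Itga5 (51.0 CPM per kb) lay above and clear of Itgb3 (36.7). Its range of 39.22 to 61.55 CPM per kb still overlapped those of Itga2b (25.81 to 47.96) and Fermt3 (26.24 to 43.55).

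The share of each chain among all α or all β transcripts was taken from the same per-kb levels, over the 16 α and 8 β subunits in the table. Among β chains Itgb1 made up 26.5 ± 5.67% in MKs alone and 62.6 ± 9.22% in cocultures, while Itgb3 made up 21.5 ± 1.80% and 6.31 ± 2.79% (SD, n = 4 each). Itgb2, the β chain of leukocyte integrins, was the largest β share in MKs alone by mean, at 34.3%, though not in replicate 1 (30.4% against 34.4% for Itgb1), and 10.5% in cocultures. Among α chains the share of Itga2b was 19.1 ± 3.93% in MKs alone and 22.4 ± 7.28% in cocultures, with overlapping groups. Itga5 went from 1.59 ± 0.297% to 23.3 ± 10.3% and Itgav from 1.66 ± 0.512% to 14.4 ± 4.59% (SD, n = 4 each). Itgam, the αM chain of neutrophils and macrophages, held 53.4 ± 2.65% of the α transcripts in MKs alone and 21.3 ± 7.17% in cocultures. Such shares describe the pooled RNA of each library and not that of MKs only. In both groups this RNA included neutrophil and macrophage transcripts, and in cocultures also MSC transcripts, at the marker levels given above.

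**Figure D4:**
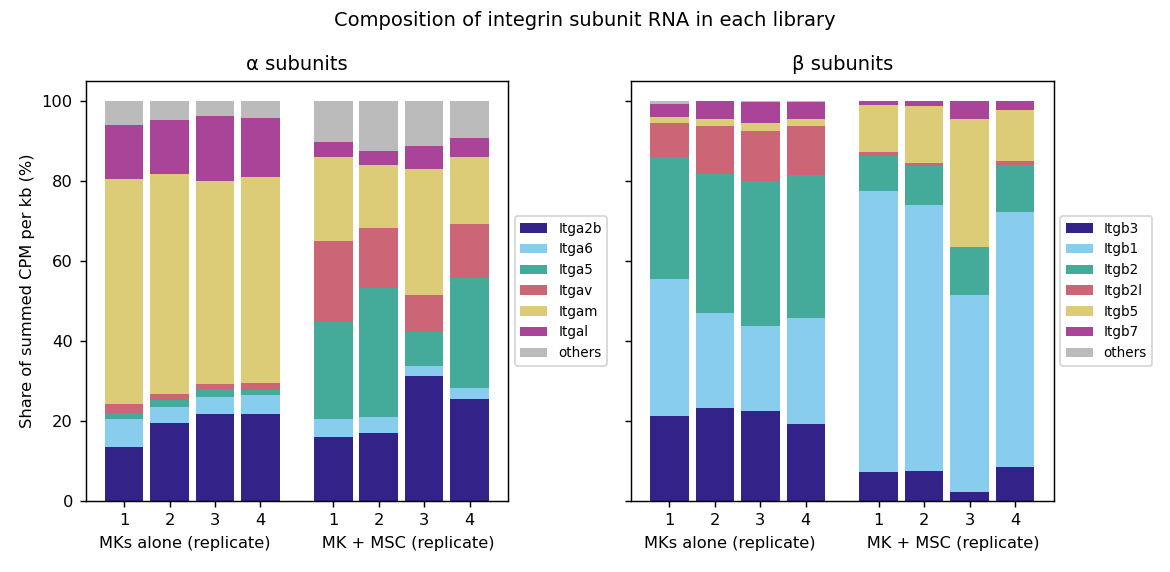
Share of each integrin chain in the summed CPM per kb of all α subunits and of all β subunits, in every library, in percent. Itgam is the largest α share in all 4 libraries of MKs alone, Itgb2 is the largest β share in 3 of them (Itgb1 in replicate 1), and Itgb1 is the largest β share in the cocultures, with replicate 3 showing less Itga5 than the other cocultures.

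Of 20 integrin subunits outside the set, 17 were in the table and 12 were tested: 2 were called higher and 6 lower, with a median log2 fold change of -1.22. Of all genes tested 13.2% were called higher and 7.31% lower. The 6 lower calls were 3 without replicate 2 of MKs alone, where lower calls over all genes tested also fell, from 857 to 539. The β2 family of leukocytes made up most of the lower calls. Itgam was 610 ± 26.5 CPM in MKs alone and 155 ± 13.4 CPM in cocultures (log2 fold change -1.97, SE 0.16, edgeR adjusted p = 5.7e-05). Itgal, the αL chain of lymphocytes and neutrophils, fell by 2.28 on the log2 scale, Itgb2 by 1.28 and Itgb2l, a β2-like chain of neutrophils, by 3.37, alongside the 10 neutrophil markers. Itga4, the α4 chain that binds the endothelial and stromal ligand Vcam1, fell from 102 to 37.0 CPM, and Itgb6 from 6.54 to 0.643 CPM. Itgb5, a β partner of αv, rose from 18.8 ± 3.69 to 242 ± 50.4 CPM (log2 fold change 3.68, SE 0.25, edgeR adjusted p = 2.7e-05), and coculture replicate 3 was its highest library. Itga7, a laminin receptor chain, was 0.559 CPM in MKs alone, 42.1 CPM in coculture replicate 3 and 2.65 to 3.39 CPM in the other cocultures, so that its log2 fold change of 4.52 became 2.47 without that library. Itga7 passed the filter on low counts only through its coculture counts, and Itgb6 only through its counts in MKs alone. A call in 1 direction only was thus open to each of Itga7 and Itgb6. Itgb7 and Itga1 were not called, at 37.5 and 23.1 CPM and at 13.1 and 7.52 CPM. Itga3 (0.0552 and 21.7 CPM) and Itga11, a collagen receptor chain of fibroblasts (0 and 36.3 CPM), missed the filter. With coculture replicate 3 left out both entered the test through their coculture counts and were called higher, the only call open to them. Itgae (4.25 and 0.273 CPM over 8 libraries) entered that test through MKs alone and was called lower, likewise the only call open to it. The calls were then 5 higher and 7 lower of 15 tested, where 20.6% of all genes tested were called higher and 15.4% lower.

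The wider activation machinery was split by role. Of 34 listed genes 32 were tested, 9 were called higher and 5 lower, and the median log2 fold change was 0.09. Of all genes tested 13.2% were called higher and 7.31% lower. The list holds genes that promote integrin activation and genes that restrain it, so these counts give no direction of activation. The 5 lower calls were 2 or 3 when any single library of MKs alone, or replicate 2 of the cocultures, was left out. Lower calls over all genes tested fell in those fits too, from 857 to between 539 and 581. Among 9 tested genes of the Rap1 arm, which relays stimulation to talin, none rose, 2 fell and 7 were not called, with a median of -0.91 (7.31% of all genes tested were called lower). These 9 include Rasa3 and Rap1gap2, which switch Rap1 off, at -0.84 each on the log2 scale, so the median is not that of activators alone. Rasgrp2, the calcium-regulated exchange factor that loads Rap1 in platelets, fell from 21.8 to 6.72 CPM (log2 fold change -1.69, SE 0.40, edgeR adjusted p = 0.0166). Apbb1ip, the Rap1 effector RIAM, fell from 55.2 to 22.3 CPM (log2 fold change -1.31, SE 0.31, edgeR adjusted p = 0.0166). Rap1b, the main Rap1 of platelets, was at 3835 and 1979 CPM, with every coculture below every library of MKs alone and a log2 fold change of -0.95 (edgeR adjusted p = 0.0252) just short of 2-fold. Rap1 genes are also expressed by leukocytes, whose markers differed between the groups.

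Of 9 tested genes for proteins that bind integrin tails, 5 rose, 4 were not called and none fell, with a median log2 fold change of 1.67 (13.2% of all genes tested were called higher). Tln2 and Fermt2, paralogues of Tln1 and Fermt3, were at 0 to 0.222 and 0 to 0.163 CPM in MKs alone, and at 13.7 to 48.6 and 43.5 to 193 CPM in cocultures (edgeR adjusted p = 0.000574 and 3.81e-05). Being near 0 in MKs alone, Tln2 and Fermt2 could not have been called lower. The levels of Tln1 and Fermt3 in the same libraries were those given above, and which cells carried them was not tested. The actin crosslinker Flna, which competes with talin for the β tail, was at 859 and 984 CPM and was not called (log2 fold change 0.20, edgeR adjusted p = 0.613). Among 14 tested genes of the adhesion complex that forms on active integrins, 4 rose and 3 fell, with a median of 0.53 (13.2% of all genes tested were called higher and 7.31% lower). Bcar1, an adhesion scaffold, had 0 counts in all 4 libraries of MKs alone. Its mean of 69.3 CPM in cocultures was at least 105-fold higher when MKs alone are set to 3 counts per library. Parvg, the parvin of blood cells, fell by 2.35 on the log2 scale, from 98.2 to 19.3 CPM, while its tissue paralogue Parva went from 0.138 to 149 CPM (edgeR adjusted p = 2.97e-05). Bcar1 and Parva, at or near 0 in MKs alone, could not have been called lower. Ilk, the kinase-like partner of the parvins (186 and 369 CPM), and Vcl, which reinforces talin (121 and 246 CPM), did not pass the test, with edgeR adjusted p of 0.0706 and 0.200. Without coculture replicate 3, in which it was at 43.2 CPM, Vcl was called higher (log2 fold change 1.36, SE 0.18, edgeR adjusted p = 1.04e-05), and the adhesion complex had 7 higher and 4 lower calls of 15 tested. Without that library 20.6% of all genes tested were called higher and 15.4% lower. Among the 7 higher calls, Lims2 had 0 counts in all 4 libraries of MKs alone. It entered that test through its coculture counts and could not have been called lower.

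Ligands of these receptors were among the transcripts that rose. Of 19 listed matrix and plasma ligands 13 were tested, and 11 rose (13.2% of all genes tested were called higher) and none fell, with a median log2 fold change of 4.84. Fn1, fibronectin, the ligand of α5β1, went from 22.3 to 637 CPM (log2 fold change 4.84, SE 0.40, edgeR adjusted p = 7.51e-05), and Spp1, osteopontin, a ligand of αvβ3, from 49.8 to 10260 CPM. Thbs1, thrombospondin, a platelet granule and stromal protein, went from 166 to 1981 CPM. Tnc, tenascin, had 0 counts in MKs alone, and its coculture mean of 98.4 CPM was at least 149-fold higher, set against 3 counts per library. Coculture replicate 3 held only 2.83 CPM of Tnc, against 110.6 to 164.9 CPM in the other cocultures. Ligand genes at or near 0 in MKs alone, among them Tnc, Col1a1 and Col3a1, could not have been called lower. Vwf, which is made by MKs and endothelium and binds αIIbβ3, was at 68.9 and 50.0 CPM and did not pass the test (edgeR adjusted p = 0.290). Of the ligands that rose, Col1a1, Col1a2 and Col3a1 also stand in the MSC marker list, and the 11 rose together with that list.

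Genes whose levels ran most like those of 3 members were picked by the smallest root mean square difference of centred log2(CPM + 1) over the 8 libraries, among 9047 genes with a mean of at least 10 CPM. For Itga2b these were Ubtf (0.103), Flot1 (0.141) and Zfyve27 (0.171). For Itgb3 they were Arhgap17 (0.161), Cyth1 (0.169) and Tmem185b (0.169), which were at 2.1 to 3.8 CPM in coculture replicate 3. For Itgb1 they were Rab7b (0.119), Tspan3 (0.155) and Calu (0.158).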

How the data were processed

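RNA was measured in 8 C57BL/6 mouse libraries, 4 of MKs cultured alone and 4 of cocultures, made with SMART-Seq HT on total RNA. The authors trimmed paired-end reads, quantified them with kallisto on mm10 (names from the submitters' processing notes and the methods) and deposited raw counts per gene as whole numbers. Wells were pooled into each library, and the study gives 4 mice per group without assigning animals to libraries. The authors' test included a batch that the labels do not give, so it was not used here.

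Here the deposited counts were scaled by TMM and tested with edgeR 4.0.16 (filterByExpr, robust quasi-likelihood F test, Benjamini-Hochberg adjustment over 11722 genes) in R 4.3.3. Calls required a 2-fold change or more, an adjusted p no larger than 0.05 and 1 CPM or more on average in either group. The SE of a log2 fold change is its size divided by the root of F. Ratios used log2 of (count + 0.5) with a two-sided exact permutation test. Lengths and positions came from GENCODE vM21 (GRCm38) by symbol (13374 of 13387 genes). In a library 3 counts equal 0.284 to 0.662 CPM. CPM and floors cover counting error only.

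All 9 members were named, with, from each other list, the called genes with the largest change up and down, every other integrin subunit with a mean of 10 CPM in a group, and a few Rap1 and tail-binding genes. Parva, Col1a1, Col1a2, Col3a1, Thbs1, Spp1, Fn1, Vwf, Itgb6, Nfe2, Gata1, Gp6 and Selp were added after their values were seen. So were Dab2, Tgfb1i1, Dok1, Lims2, Itgae, Cxcl12, C1qa, C1qb and C1qc. The members and lists were chosen with earlier results of these data known. Alternatives were DESeq2 1.42.0, a replicate block, library size scaling, scaling to MK markers, 2 other filters, a length correction and each library left out. The scripts were tested on simulated data with known changes.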

Additional observations from a re-analysis of the deposited data

Results flagged for a closer look

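Each of the 9 members and each of the 9 ratios was examined in both groups for a library far from the other 3 (Dixon's test, 36 groups, of which chance flags about 1.8), and 5 were found. Itgb3 in coculture replicate 3 was 5.19 on the log2(CPM + 1) scale, below the other cocultures. In the same library the log2 ratio of Fermt3 over Itgb3 was 3.65, above the others, and that of Tln1 over Fermt3 was -2.86, below them. The other 2 lay in replicate 1 of MKs alone, where Tln1 was low, at 7.20 on the log2(CPM + 1) scale, and where the log2 ratio of Itga6 over Itga2b was high, at -0.20. Thus 3 of the 5 fell in coculture replicate 3, the library with 1012 genes at 0 that had at least 10 counts in every other library.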

How the results depend on the processing

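Itgb1, Itga5 and Itgav were called higher in all 19 alternatives, with log2 fold changes of 1.64 to 1.97, 3.21 to 3.89 and 2.45 to 2.92 and adjusted p of at most 0.0187, 0.0384 and 0.0139. Over the alternatives Itgb3 ran from -1.45 to -0.84, Itga6 from -1.20 to -0.80, Itga2b from -0.58 to -0.13, Tln1 from -0.58 to -0.04 and, in 18 alternatives, Itga2 from -2.29 to -1.24. Itga2 could not be fitted with a filter of at least 10 counts in each sample, having 0 counts in coculture replicate 3. Of 170 member values under an alternative 155 kept their direction and their side of the threshold, 7 newly passed it and 8, all of Fermt3, turned negative. Fermt3 was -0.0671 with library size only, -0.0089 with no filter, -0.16 with the filter of 10 counts per sample, -0.0749 with the replicate block, -0.0946 with the block in DESeq2, -0.30 with the block and without coculture replicate 3, and -0.40 to 0.21 when leaving out each library. Its range over the alternatives was -0.40 to 0.65, the 0.65 with the gene length correction, and the cause was not tested. The 4 ratios whose groups did not overlap kept their direction in all the alternatives run, and Tln1 over Fermt3 ran from -0.67 to 0.29 when leaving out each library.

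The members called lower, 0 over 8 libraries, were 2 by DESeq2 with or without the block (Itgb3 and Itga6), 1 with the gene length correction (Itgb3), 1 with the block and without coculture replicate 3, and 0 to 1 when leaving out each library (Itga2, without coculture replicate 3). Other integrin subunits called higher (2) were 1 by DESeq2, with the block, with length correction and block and with the filter of 10 counts per sample, 4 with no filter, 5 with the block and without coculture replicate 3, and 2 to 5 over libraries left out, where coculture replicate 3 gave the 5. Those called lower (6) were 3 with the block and 3 to 7 over libraries left out, the 3 without replicate 2 of MKs alone. Activation genes called higher (9) were 3 with the filter of 10 counts per sample and 7 to 12 over libraries left out. Those called lower (5) were 3 with the block, 3 scaled to MK markers, 1 with the length correction with or without the block, 8 with the block and without coculture replicate 3, and 2 to 7 over libraries left out, falling to 2 or 3 without any 1 of the MKs alone or without coculture replicate 2. Calls over all genes moved too, from 1544 higher and 857 lower over 8 libraries. They were 1857 and 1259 by DESeq2, 1096 and 573 with the block and 1123 and 723 with the length correction. With the filter of 10 counts per sample they were 1109 and 795 of 7497 tested. Leaving out each library gave 1071 to 2530 higher and 539 to 1890 lower, both highest without coculture replicate 3.

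The replicate numbers are shared by both groups, but same-numbered libraries did not all deviate together (correlations across genes 0.369, 0.0198, 0.15 and 0.028), so the block was no main test. Scaling to MK markers, the length correction, the block and the block in DESeq2 moved the median of all genes to 0.175, 0.144, -0.14 and -0.165. Counts of Itga2, 51 at most in a library, limit what can be read from it, and the batch of the authors' test, which the labels do not give, could not be fitted.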
